A study of Mus musculus with 18 samples.

Results

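The transcripts of 8 fatty acid elongases and desaturases, Elovl1, Elovl2, Elovl3, Elovl5, Fads1, Fads2, Fads6 and Scd2, were followed in mouse liver. They were chosen by gene symbol, with earlier results of these data known. All 8 were found among the 19057 rows of the expression table, and all 8 passed the filter on low values. The livers came from male ICR mice of 10 weeks, with 18 libraries in 6 groups of 3 mice. Con mice had a regular diet and saline. STZ mice had 1 dose of streptozotocin, a toxin of the pancreatic beta cell that causes type 1 diabetes. A10-FMT mice had STZ followed by small intestinal microbiota of donors that had been given alginate oligosaccharide (AOS) at 10 mg/kg, and Con-FMT mice had STZ followed by microbiota of control donors. AOS mice had 10 mg/kg AOS without STZ, and STZ+AOS mice had STZ and 10 mg/kg AOS. The last 2 groups are known here from the sample labels only. Donor contents were pooled, so mice of 1 transplant group share their inoculum, and whole liver was sequenced, so fewer cells of a type and less RNA per cell cannot be told apart.

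Elongases of the Elovl family carry out the first and rate-limiting step of the microsomal cycle that lengthens long-chain fatty acids, and each prefers chains of a given length and saturation. Desaturases of the Fads and Scd families insert double bonds with electrons passed on by cytochrome b5. Fads2, Elovl5, Fads1 and Elovl2 act one after another to turn dietary linoleic and alpha-linolenic acid into arachidonic and docosahexaenoic acid, whereas Elovl1 and Elovl3 lengthen saturated and monounsaturated chains and the Scd enzymes make monounsaturated ones. In liver, insulin acts on several of these genes through SREBP-1c, and Elovl3 is known for a strong daily rhythm.

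In GRCm38, Elovl1 lies on chromosome 4 (118428093 to 118432953, + strand), Elovl2 on chromosome 13 (41182381 to 41220405, - strand) and Elovl5 on chromosome 9 (77917364 to 77984519, + strand). Fads6 lies on chromosome 11 (115279622 to 115297663, - strand). The other 4 genes are on chromosome 19, namely Fads2 (10062765 to 10101746, - strand), Fads1 (10182888 to 10196877, + strand), Scd2 (44293674 to 44306864, + strand) and Elovl3 (46131897 to 46135694, + strand). Fads2 and Fads1 are transcribed away from each other with 81142 bases between them, and their transcripts were the pair of the 8 that varied together most closely (r = 0.948 over 18 livers).

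Promoter sequences of RefSeq (GRCm38.p6; 300 bases, of which 250 lie before and 50 after the start) were found for 5 of the 8 genes. Elovl3, Fads1 and Scd2 were not among them. The promoters of Elovl5 and Fads6, which were called in opposite directions with STZ, and of Elovl2 and Fads2, which varied together, are shown because their letters can be set beside those patterns. Capitals mark matches on either strand to 5 motifs: the GC box GGGCGG (in 35.6% of 32817 promoters), CCAAT (37.4%), the E-box CACGTG (7.15%), the nuclear receptor motif AGGTCA (16.3%) and the sterol element core TCACNCCAC (1.24%). They read, 5′ to 3′ on the strand of the gene, as follows.
Elovl5: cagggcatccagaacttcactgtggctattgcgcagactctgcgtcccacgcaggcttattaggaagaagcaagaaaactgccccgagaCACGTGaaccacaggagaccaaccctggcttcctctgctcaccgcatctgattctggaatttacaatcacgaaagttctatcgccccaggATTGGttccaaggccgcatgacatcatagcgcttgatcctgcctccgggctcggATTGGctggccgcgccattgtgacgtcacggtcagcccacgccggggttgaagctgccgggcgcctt
Fads6: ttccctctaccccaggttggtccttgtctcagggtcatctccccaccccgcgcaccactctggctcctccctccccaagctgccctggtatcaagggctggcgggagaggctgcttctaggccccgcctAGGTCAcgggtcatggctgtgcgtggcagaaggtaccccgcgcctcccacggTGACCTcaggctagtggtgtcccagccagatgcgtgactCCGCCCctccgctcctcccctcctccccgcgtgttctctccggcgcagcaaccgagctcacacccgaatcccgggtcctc
Elovl2: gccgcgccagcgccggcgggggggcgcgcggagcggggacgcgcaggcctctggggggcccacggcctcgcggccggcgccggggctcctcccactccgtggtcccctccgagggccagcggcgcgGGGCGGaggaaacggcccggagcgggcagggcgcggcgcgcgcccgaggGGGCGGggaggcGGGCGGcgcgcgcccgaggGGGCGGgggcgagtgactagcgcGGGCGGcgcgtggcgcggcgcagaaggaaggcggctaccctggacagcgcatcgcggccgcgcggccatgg
Fads2: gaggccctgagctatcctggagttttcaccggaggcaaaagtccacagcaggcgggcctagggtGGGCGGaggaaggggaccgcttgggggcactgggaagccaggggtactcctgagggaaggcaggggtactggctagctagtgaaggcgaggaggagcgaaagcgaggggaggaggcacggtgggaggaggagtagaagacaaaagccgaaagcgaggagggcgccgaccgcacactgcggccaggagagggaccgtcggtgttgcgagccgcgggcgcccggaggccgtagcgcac

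Elovl5 (chr9:77917115-77917414, + strand) held 2 CCAAT boxes and 1 E-box, and neither a GC box nor AGGTCA. Fads6 (chr11:115297513-115297812, - strand) held AGGTCA 2 times, 1 in each orientation, and 1 GC box. Elovl2 (chr13:41220354-41220653, - strand) held 5 GC boxes and no other match at the first of its 2 annotated starts, shown here, and no match at the other, and Fads2 (chr19:10101454-10101753, - strand) held 1 GC box. Elovl1, with 2 annotated starts, held 7 GC boxes, 1 CCAAT box and 1 AGGTCA over both windows. No window of these 5 genes held the letters of the sterol element core. The windows shown for Elovl2 and Fads2, whose transcripts varied together from mouse to mouse, shared the GC box alone among the motifs searched, which more than 1 in 3 promoters carry.

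Values are RPKM, that is reads divided by transcript length and sequencing depth, and so can be compared between genes of a library. They are less directly comparable between libraries, since RPKM summed to 749557 to 806937 in Con and to 631126 to 684659 in STZ (621121 to 806937 over all 18), which is why 3 other scalings of the libraries were tried. There were 9955 to 10409 genes at 1 RPKM or more per library. Steps between the lowest values gave relative depths of 0.937 to 1.08 and, with annotated transcript lengths, an estimate of 11000000 mapped reads for the median library. Mouse 3 of Con and mouse 3 of AOS stood apart from the other libraries: of genes in which mice 1 and 2 of the group differed by more than 0.5 (log2), Con mouse 3 lay between them in 98.3% (565 of 575) and AOS mouse 3 in 95.9% (331 of 345), against 7.76% to 83.5% for the other 16 libraries. Here n = 3 counts both as separate mice, which was not tested. Calls of the 8 against Con or AOS are also given with mice 1 and 2 of these groups alone. Most other results that rest on Con or AOS are given with all mice only. These include the pathway and marker lists, the correlations, the ratios and the difference between the effects of STZ with and without AOS. STZ mouse 3 was nearer to Con (distance 53.7 from the Con mean over all tested genes) than STZ mice 1 and 2 (90.6 and 89.1). The 8 hepatocyte markers summed to 34690 to 55430 RPKM in the 18 libraries, and with STZ against Con 3 of them were called higher and 3 lower. STZ+AOS mouse 3 carried 3 transcripts of the exocrine pancreas (Prss2 7.74, Pnlip 7.23 and Cpa1 3.31 RPKM, with at most 0.40, 0.15 and 0.18 in the others). These 3 were picked from a list of 7 after their values were seen, and Cela1 of the same list was 4.39 RPKM in that mouse, 30.55 to 48.80 in the livers without STZ and 2.96 to 13.80 in those with STZ.

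In control liver the 8 transcripts spanned more than 2 orders of magnitude. Elovl5 (230.1 ± 49.4 RPKM, SD, n = 3) and Elovl3 (225.5 ± 15.4) were the highest and overlapped each other. Fads2 (123.6 ± 17.9), Fads1 (118.4 ± 16.9) and Elovl2 (113.1 ± 25.2) came next and overlapped as well. Elovl1 (40.2 ± 7.46) and Fads6 (23.8 ± 5.26) followed without overlap, and Scd2 (0.850 ± 0.156) was by far the lowest. In STZ liver the order was different, with Fads2 (200.3 ± 64.5), Fads1 (154.5 ± 41.1) and Elovl2 (152.1 ± 23.4) first, Elovl5 (113.4 ± 47.7), Fads6 (34.7 ± 4.80) and Elovl1 (27.3 ± 2.72) behind them, and Elovl3 (4.09 ± 6.87) and Scd2 (1.83 ± 0.930) at the end.

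**Figure D1:**
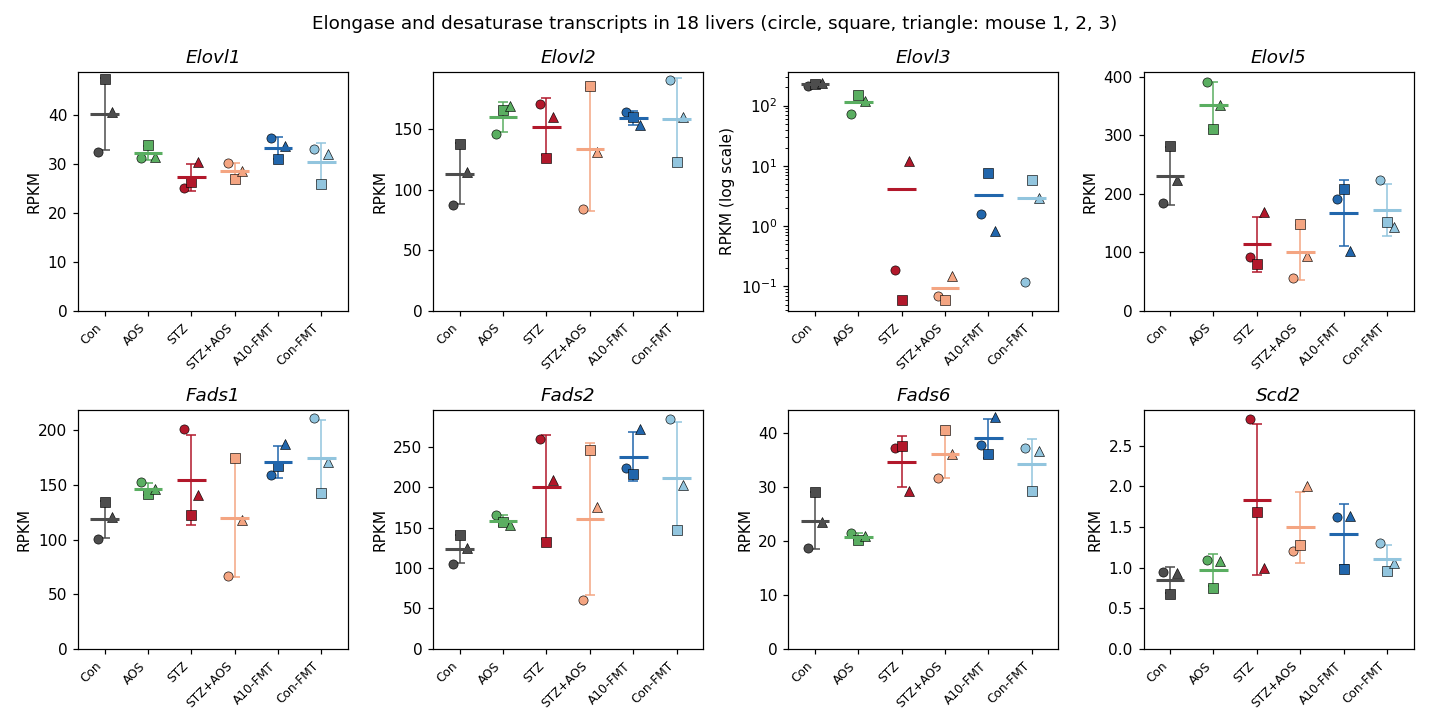
RPKM of the 8 transcripts (y axis, 0-based except for Elovl3, which has a log axis) in each of 18 livers by group (x axis). Symbols are mice 1, 2 and 3, horizontal bars are group means and whiskers are SD (none for Elovl3). Elovl3 lies at or under 12.03 RPKM in all 12 livers with STZ and at or above 72.35 in the 6 without, and Fads6 at 29.20 or more against 29.16 or less.

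The first question was what STZ did to these transcripts. With STZ against Con, 5 of 8 were called at an adjusted p under 0.05 (limma): Fads6 and Scd2 were higher, and Elovl3, Elovl5 and Elovl1 were lower. Of all 10602 genes tested, 33% were called higher and 5.52% lower, so 2 higher of 8 is near the background and 3 lower of 8 is above it. Since the 8 were chosen with earlier results of these data known, this is a description only. With the 3 other scalings 46.6% to 51.7% of the calls over all genes were higher, in place of 85.7%, so the background share of lower genes depends on the scaling. The median log2 change was 0.40 over the 8 and 0.21 over all genes. Without Con mouse 3, Elovl1 and Elovl3 kept their call and the other 3 lost it.

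Among the elongases of saturated and monounsaturated chains, Elovl3 changed most. It measured 208.98, 228.17 and 239.45 RPKM in the Con livers and 0.19, 0.06 and 12.03 RPKM in the STZ livers. The groups were far apart, and STZ mouse 3 was well above its 2 group members. The fitted log2 change of RPKM + 1 was -6.48 (SE 0.93, adjusted p = 0.00084, limma). Without STZ mouse 3 the log2 change was -7.65 and without Con mouse 3 it was -6.43. Values such as 0.06 and 0.19 RPKM correspond to an estimated 1.09 and 3.46 reads, so the size of the change depends on the pseudocount, and with 0.1 in place of 1 it was -8.09.

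The same fall was seen in each of the other groups with STZ. Elovl3 measured 0.07, 0.06 and 0.15 RPKM in STZ+AOS, 1.57, 7.53 and 0.84 in A10-FMT and 0.12, 5.85 and 2.91 in Con-FMT. AOS livers without STZ held 72.35, 150.77 and 119.25 RPKM. These mice lay between the Con and the STZ livers, with no overlap with either.

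Clock genes also differed between livers with and without STZ. Dbp, a clock output gene, measured 0.58 to 0.68 RPKM in Con, 0.36 to 3.41 in AOS and 6.75 to 88.02 in STZ, and the summed level of 13 clock genes was 41.9 to 68.2 RPKM in Con, 60.4 to 97.3 in AOS and 106 to 309 in STZ. Of the 13, 8 rose and 2 fell with STZ against Con, where 33% of all genes were called higher and 5.52% lower. STZ mouse 3, with the highest Elovl3 of the 12 livers with STZ, had the lowest Dbp of them. Against STZ, Dbp and Elovl3 both had positive log2 changes with A10-FMT (1.64 and 0.43) and with Con-FMT (0.72 and 0.29). With STZ+AOS against STZ their signs were opposite (0.45 and -1.22). None of these changes was called. The time of day at which livers were taken is not given in the sources used here, and its part in the Elovl3 result was not tested.

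**Figure D2:**
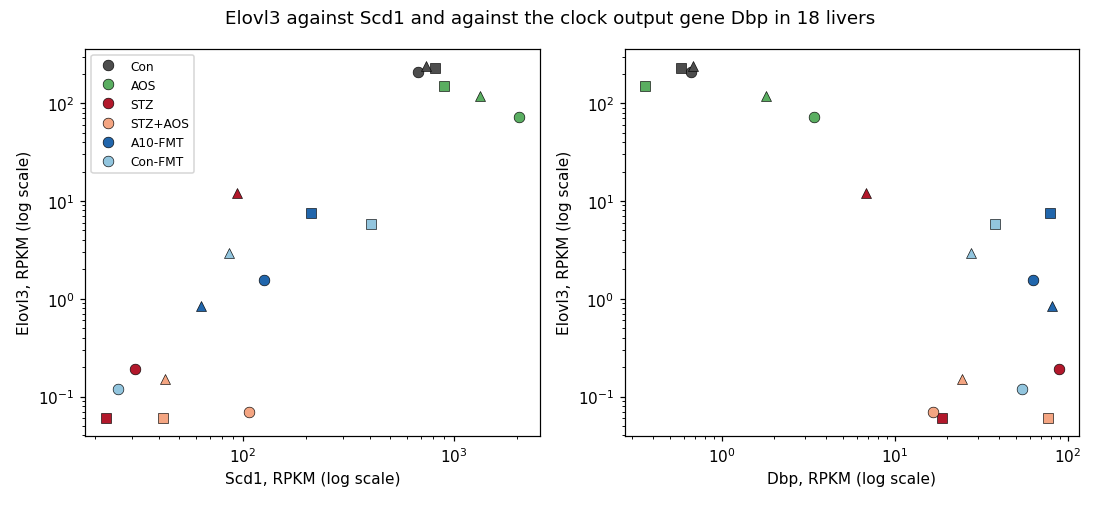
Elovl3 (y axis) against Scd1 (left) and Dbp (right) in 18 livers, all in RPKM on log axes. Colours are groups and symbols mice 1, 2 and 3. The 6 livers without STZ sit at high Elovl3 and Scd1 and at Dbp of 3.41 RPKM or less, and the 12 with STZ at low Elovl3 and Scd1 and at Dbp of 6.75 or more.

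Elovl1, the elongase of very long saturated and monounsaturated chains used for sphingolipids, fell only modestly. Con livers held 32.53, 47.42 and 40.69 RPKM, and STZ livers 25.13, 26.32 and 30.32 RPKM. All 3 STZ livers were below all 3 Con livers, and the log2 change was -0.53 (SE 0.14, adjusted p = 0.0135, limma). It was called in each of the 6 fits that left out 1 Con or STZ mouse (highest adjusted p = 0.0487). With the 3 other scalings of the libraries it was -0.80 to -0.78.

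Of the elongases of polyunsaturated chains, Elovl5 fell and Elovl2 had a higher mean that did not pass the test. Elovl5 measured 184.02, 282.21 and 224.15 RPKM in Con and 91.46, 80.53 and 168.12 in STZ. The groups did not overlap, with STZ mouse 3 nearest to Con. Elovl5 fell by 1.07 on the log2 scale (SE 0.33, adjusted p = 0.0245, limma), but the call was lost without Con mouse 2, Con mouse 3, STZ mouse 1 or STZ mouse 2 (adjusted p = 0.0781, 0.0609, 0.0748 and 0.097).

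Elovl2, which makes the precursors of docosahexaenoic acid, measured 87.23, 137.68 and 114.35 RPKM in Con and 170.57, 125.81 and 159.84 in STZ. The groups overlapped, and the log2 change of 0.44 (SE 0.19) was not called (adjusted p = 0.0921, limma). Without Con mouse 2 it was 0.59 and was called (adjusted p = 0.0445).

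Both front-end desaturases of the same pathway had higher means with STZ that did not pass the test. Fads2, which takes the first step from linoleic acid, measured 104.91, 140.56 and 125.22 RPKM in Con and 259.84, 131.85 and 209.27 in STZ. STZ mouse 2 lay within the Con range and the others above it. The log2 change was 0.65 (SE 0.27, adjusted p = 0.0733, limma), and without STZ mouse 2 it was 0.92 and was called (adjusted p = 0.0239).

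Fads1, which makes arachidonic acid, measured 100.66, 134.41 and 120.19 RPKM in Con and 200.70, 121.95 and 140.95 in STZ. Again STZ mouse 2 lay within the Con range. The log2 change was 0.36 (SE 0.20, adjusted p = 0.164, limma).

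Fads6, a further member of the desaturase family, rose. It measured 18.64, 29.16 and 23.61 RPKM in Con and 37.34, 37.69 and 29.20 RPKM in STZ. The groups did not overlap, although STZ mouse 3 and Con mouse 2 were almost level. The log2 change was 0.54 (SE 0.16, adjusted p = 0.0239, limma). Since 3 other scalings removed the shift of 0.21 in the median of all genes, they left 0.25 to 0.30 for Fads6, without a call (adjusted p = 0.122 to 0.17). The call was also lost without Con mouse 1, Con mouse 3, STZ mouse 1 or STZ mouse 2 (adjusted p = 0.0977, 0.0607, 0.0713 and 0.0837).

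Scd2, the stearoyl-CoA desaturase that prevails outside liver, was low in all libraries. It measured 0.95, 0.67 and 0.93 RPKM in Con and 2.83, 1.68 and 0.99 RPKM in STZ. The groups did not overlap, but STZ mouse 3 was at the level of Con mice 1 and 3. The log2 change of RPKM + 1 was 0.57 (SE 0.20, adjusted p = 0.0474, limma), and the call held in only 1 of the 6 fits that left out a mouse, the one without STZ mouse 3. It was also lost with the 3 other scalings (adjusted p = 0.109 to 0.238) and without the filter on low values (adjusted p = 0.0799).

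Among non-parenchymal liver cells, Kupffer and stellate cell markers had mostly higher summed levels in STZ, but few of them were called. Lymphocyte markers had lower ones (2.51 to 3.34 RPKM in Con and 0.83 to 2.44 in STZ). These are near the floor, since 4 of the 7 genes were under 1 RPKM throughout, and none of the 7 passed the filter for a test. Bile duct markers overlapped (23.1 to 41.2 RPKM in Con and 21.3 to 41.3 in STZ). The summed level of 7 Kupffer cell and macrophage markers was 62.8 to 94.5 RPKM in Con and 93.8 to 206 in STZ, and that of 7 stellate cell and fibroblast markers was 73.7 to 84.9 in Con and 109 to 134 in STZ. With STZ against Con, 1 of the 7 rose in either list and none fell, where 33% of all genes rose. Of 5 adipocyte markers, Adipoq, Lep, Plin1 and Cfd were under 1 RPKM in all libraries, and Fabp4 made up the rest (7.31 to 8.84 RPKM in Con and 11.46 to 29.69 in STZ). The part of these cells in the Scd2 result was not tested.

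**Figure D3:**
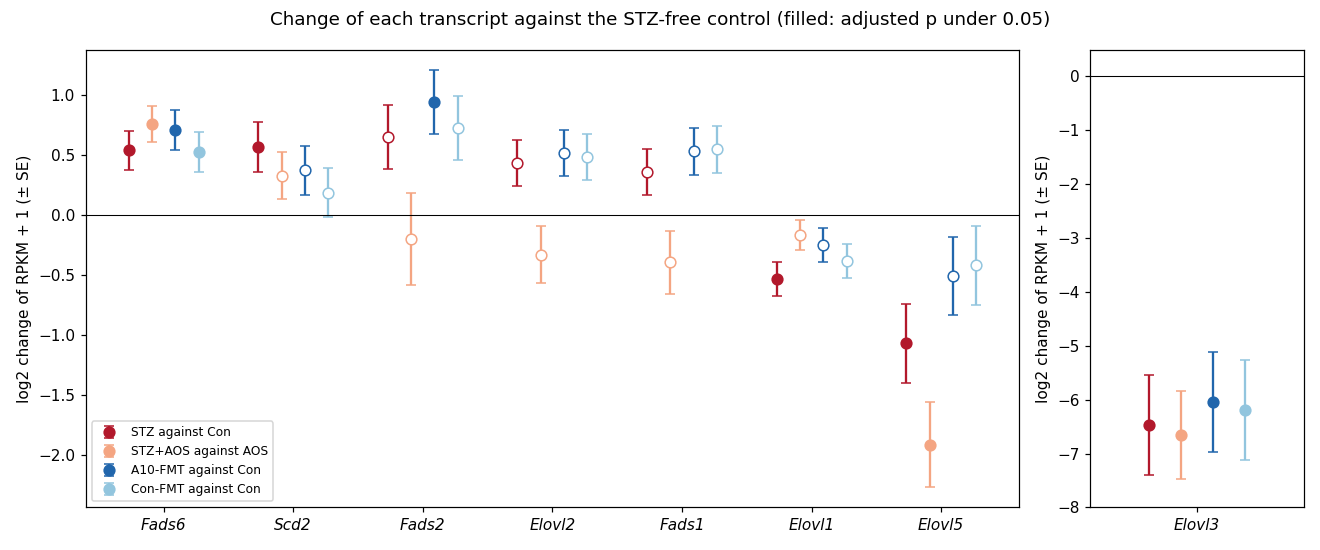
Fitted log2 change of RPKM + 1 (y axis; points with SE, n = 3 mice per group) of each transcript (x axis; Elovl3 on its own scale at the right) with STZ, STZ+AOS, A10-FMT and Con-FMT, each against its control without STZ. Filled points were called at an adjusted p under 0.05; Elovl3 and Fads6 are filled in all 4 comparisons, Elovl5 in those with STZ and STZ+AOS.

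STZ+AOS against AOS gave the effect of STZ in 6 further mice, none of them shared with STZ against Con. Here 3 of 8 were called: Fads6 was higher, and Elovl3 and Elovl5 were lower. Over all 10822 genes tested in the model of 6 groups, 31.8% were called higher and 6.11% lower (4102 calls, and 2654 to 2729 with the 3 other scalings, of which 40.9% to 50.6% were higher in place of 83.9%). The median log2 change was -0.27 over the 8 and 0.21 over all genes.

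Elovl3 had a log2 change of -6.66 (SE 0.81, adjusted p = 9.66e-05, limma), from the values given above. Elovl5 measured 391.30, 310.38 and 351.69 RPKM in AOS and 55.92, 148.98 and 93.73 in STZ+AOS. Each STZ+AOS liver was far below each AOS liver, and Elovl5 fell by 1.91 on the log2 scale (SE 0.35, adjusted p = 0.00111, limma).

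Fads6 measured 21.41, 20.19 and 20.89 RPKM in AOS and 31.66, 40.57 and 36.23 in STZ+AOS. The groups were clearly apart, and the log2 change was 0.76 (SE 0.15, adjusted p = 0.0018, limma). It stayed called with the 3 other scalings (0.51 to 0.54) and in every fit that left out 1 AOS or STZ+AOS mouse (0.68 to 0.85), the fit without STZ+AOS mouse 3 and its pancreatic transcripts included. The calls of Elovl3 and Elovl5 also held in each of those 6 fits. With AOS mice 1 and 2 alone the log2 changes were -6.59 for Elovl3, -1.91 for Elovl5 and 0.76 for Fads6, all still called (adjusted p = 0.00201, 0.00942 and 0.0134, limma).

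The other 5 transcripts were not called in these mice. Elovl1 measured 31.19, 33.85 and 31.51 RPKM in AOS and 30.14, 26.85 and 28.63 in STZ+AOS, with a log2 change of -0.17 (adjusted p = 0.306, limma) that the 3 other scalings took to -0.42 to -0.39, where it was called (adjusted p = 0.0169 to 0.0202). Scd2 measured 1.10, 0.75 and 1.08 RPKM in AOS and 1.21, 1.28 and 2.0 in STZ+AOS, with a log2 change of 0.33 (adjusted p = 0.194). For Elovl2, Fads1 and Fads2 the log2 changes were -0.33, -0.39 and -0.20, against 0.44, 0.36 and 0.65 with STZ against Con.

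The difference between the effect of STZ with and without AOS was tested in the same model. None of the 8 was called (limma), 1 had an unadjusted p under 0.05, and 0% of all genes were called while 584 had an unadjusted p under 0.05. That 1 was Elovl2, with a difference of -0.77 on the log2 scale (SE 0.34, adjusted p = 0.856, limma).

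STZ+AOS mouse 1 was low in the whole polyunsaturated pathway, and mouse 2 was high. Mouse 1 held 83.70 RPKM of Elovl2, 67.09 of Fads1, 60.24 of Fads2 and 55.92 of Elovl5. Mouse 2 held 185.54, 174.62, 246.36 and 148.98 RPKM of the same transcripts, and mouse 3 lay between them in all 4 (131.24, 117.53, 175.45 and 93.73). Without STZ+AOS mouse 2, Elovl2 and Fads1 were called lower than in AOS (log2 changes -0.60 and -0.72, adjusted p = 0.046 and 0.0292, limma), and without mouse 1 the change of Fads2 was 0.39 in place of -0.20.

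Over all groups, such joint variation was closest among 3 of the transcripts. Over the 18 livers, Pearson's r of log2(RPKM + 1) was 0.948 for Fads1 and Fads2, 0.89 for Elovl2 and Fads1 and 0.88 for Elovl2 and Fads2, and after subtracting group means it was 0.965, 0.907 and 0.904. Elovl5 varied with them less closely, with r within groups of 0.716 for Elovl2, 0.55 for Fads1 and 0.61 for Fads2. For Fads6 these were 0.638, 0.643 and 0.534. These are descriptions over livers that share scaling and groups. For scale, an r of 0.9 or more within groups was reached with Fads2 by 10 of 10821 other genes (0.0924%), with Fads1 by 15 (0.139%) and with Elovl2 by 12 (0.111%). Of all 28 pairs of the 8 transcripts, 3 had an r above 0.8 and 12 had an r below 0, with Elovl3 and Fads6 the lowest over all livers (-0.876, and -0.567 within groups) and Elovl3 and Scd2 the lowest within groups (-0.734).

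Elovl5 did not follow Fads2 across groups although both serve the same pathway. The ratio of Fads2 to Elovl5 within a library, which does not depend on how the library was scaled, was 0.57, 0.498 and 0.559 in Con and 0.424, 0.504 and 0.435 in AOS. It was 2.84, 1.64 and 1.24 in STZ, 1.08, 1.65 and 1.87 in STZ+AOS, 1.17, 1.04 and 2.68 in A10-FMT and 1.27, 0.974 and 1.42 in Con-FMT. All 12 livers with STZ had a higher ratio than all 6 livers without. The ratio of Elovl2 to Elovl5 separated the livers in the same manner, with 0.372 to 0.534 without STZ and 0.77 to 1.86 with STZ, and the ratio of Fads6 to Elovl1 did too, with 0.573 to 0.686 against 0.963 to 1.51. The ratio of Fads1 to Fads2 did not separate them, with 0.904 to 0.96 without STZ and 0.67 to 1.11 with STZ. The ratios were formed after the values were seen and carry no test. The 3 that separated the livers have Elovl5 or Elovl1 below the line, which were called lower with STZ against Con. Their separation therefore follows in part from that choice.

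**Figure D4:**
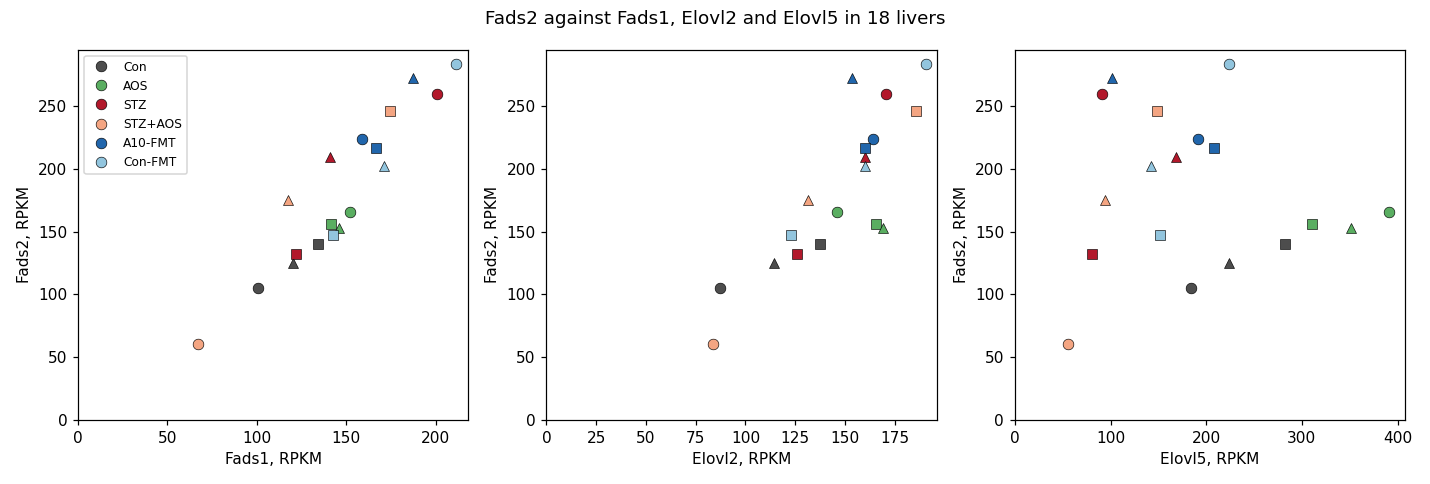
Fads2 (y axis) against Fads1, Elovl2 and Elovl5 (x axes, left to right) in 18 livers, all in RPKM from 0. Colours are groups and symbols mice 1, 2 and 3. Fads1 and Elovl2 follow Fads2 from liver to liver, whereas in the right panel the livers without STZ lie apart at high Elovl5 for their Fads2.

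As single transcripts, 2 of the 8 did not overlap between the 12 livers with STZ and the 6 without, which 12.2% of all 10822 genes did not either. Elovl3 was 0.06 to 12.03 RPKM with and 72.35 to 239.45 without STZ. Fads6 was 29.20 to 43.05 RPKM with and 18.64 to 29.16 without, so that its ranges all but touched.

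The second question was whether transplanted microbiota changed these transcripts in STZ mice. With A10-FMT against STZ none of the 8 was called at either threshold, that is neither after adjustment nor at an unadjusted p under 0.05 (limma), while 0.226% of all genes were called and 2212 had an unadjusted p under 0.05. The same held with Con-FMT against STZ, where 0.00943% of all genes were called and 2131 had an unadjusted p under 0.05. Both comparisons share the 3 STZ livers, and the counts over all genes turned on 1 of them. Without STZ mouse 3 they were 1343 of 10580 genes with A10-FMT, in place of 24, and 1636 with Con-FMT, in place of 1. In those fits none of the 8 was called with A10-FMT and 1 with Con-FMT, namely Scd2, which was lower than in STZ (-0.61, adjusted p = 0.042, limma).

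Elovl5 had the highest fitted change of the 8 in both, with a pseudocount of 1 and all mice. With 0.1 in place of 1, Elovl3 was higher (1.47 with A10-FMT and 0.94 with Con-FMT, against 0.57 and 0.65 for Elovl5). Without STZ mouse 3 Elovl3 was again higher (1.61 and 1.47), and in neither case was it called. Elovl5 measured 191.12, 207.98 and 101.85 RPKM in A10-FMT and 224.03, 151.26 and 142.79 in Con-FMT, which overlapped STZ. The log2 change against STZ was 0.57 (SE 0.33, adjusted p = 0.343) with A10-FMT and 0.65 (SE 0.33, adjusted p = 0.286, limma) with Con-FMT, and without STZ mouse 3 it was 0.89 (adjusted p = 0.076) and 0.97 (adjusted p = 0.0528, limma). Elovl1 measured 35.39, 30.96 and 33.60 RPKM in A10-FMT, all above the STZ livers, with a log2 change of 0.28 (SE 0.14, adjusted p = 0.278, limma).

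For the 3 Fads desaturases the transplanted and the STZ livers overlapped. Fads2 measured 223.85, 216.49 and 272.45 RPKM in A10-FMT and 284.03, 147.36 and 202.73 in Con-FMT. Fads1 measured 158.61, 166.81 and 187.21 RPKM in A10-FMT and 211.01, 142.76 and 170.78 in Con-FMT. Against STZ the log2 changes were 0.29 and 0.17 with A10-FMT and 0.08 and 0.19 with Con-FMT, with SE of 0.27 for Fads2 and 0.20 for Fads1.

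Fads6 measured 37.77, 36.23 and 43.05 RPKM in A10-FMT and 37.30, 29.21 and 36.61 in Con-FMT, with log2 changes of 0.17 and -0.01 against STZ. Elovl2 measured 164.24, 160.09 and 153.38 RPKM in A10-FMT and 190.80, 123.10 and 160.16 in Con-FMT. Scd2 measured 1.62, 0.98 and 1.64 RPKM in A10-FMT and 1.30, 0.96 and 1.06 in Con-FMT. All of these overlapped the STZ livers.

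Against Con, Fads6 was higher and Elovl3 lower in both transplanted groups. With A10-FMT against Con 3 of 8 were called, with Fads2 (0.94, SE 0.27, adjusted p = 0.0335) and Fads6 (0.71, SE 0.16, adjusted p = 0.0155) higher and Elovl3 (-6.04, SE 0.93, adjusted p = 0.00298, limma) lower. Of all genes, 15.9% were called higher and 2.47% lower (1953 calls, and 1109 to 1171 with the 3 other scalings, of which 53% to 55.1% were higher in place of 86.6%). With Con-FMT against Con 2 of 8 were called, Fads6 higher (0.53, SE 0.16, adjusted p = 0.0443) and Elovl3 lower (-6.19, SE 0.93, adjusted p = 0.00303, limma), where 17.5% and 1.89% of all genes were called (2059 calls, and 824 to 888 with those scalings, of which 51.5% to 55.8% were higher in place of 90.3%). These comparisons share the Con livers with STZ against Con. Without Con mouse 3 only Elovl3 of the 8 was called in either, and 687 and 705 genes of all.

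Fads2 was above every Con liver in all 3 A10-FMT livers, but its call was lost in 5 of the 6 fits that left out 1 mouse (adjusted p = 0.0633 to 0.125) and with the 3 other scalings (adjusted p = 0.0776 to 0.098). Fads6 in A10-FMT stayed called with these scalings (0.45 to 0.54) and in Con-FMT did not (adjusted p = 0.164 to 0.224). In A10-FMT its call was lost without Con mouse 1, Con mouse 3 or A10-FMT mouse 3 (adjusted p = 0.0659, 0.0527 and 0.0678). In Con-FMT it was lost without Con mouse 1, Con mouse 3, Con-FMT mouse 1 or Con-FMT mouse 3 (adjusted p = 0.17, 0.106, 0.152 and 0.12, limma). Elovl1, not called without them, was called lower in Con-FMT with all 3 scalings (-0.62 to -0.59, adjusted p = 0.0114 to 0.0191) and in A10-FMT with quantile normalization and median-ratio scaling (-0.48 and -0.45, adjusted p = 0.0269 and 0.04, limma). Between A10-FMT and Con-FMT none of the 8 was called or had an unadjusted p under 0.05 (limma). Over all genes 0% were called and 303 had an unadjusted p under 0.05. The log2 differences ran from -0.08 (Elovl5) to 0.21 (Fads2).

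The third question was what AOS did. With AOS against Con none of the 8 was called (limma), where 0.00924% of all genes were called and 781 had an unadjusted p under 0.05. The 2 with an unadjusted p under 0.05 were Elovl1, with a log2 change of -0.30 (SE 0.13), and Elovl2, with 0.52 (SE 0.24; AOS 145.75, 165.77 and 168.97 RPKM, all above Con). Elovl5 was also above every Con liver in all 3 AOS livers, with a log2 change of 0.62 (SE 0.35, adjusted p = 0.764), and Fads1 and Fads2 likewise (152.25, 141.46 and 145.92 RPKM of Fads1, and 166.05, 156.49 and 153.04 of Fads2). Elovl3 was below every Con liver in all 3 (log2 change -1.04, SE 0.81, adjusted p = 0.824, limma). How many of all genes separate 3 AOS from 3 Con livers was not counted, so these orderings are a description only. With mice 1 and 2 of both groups alone none of the 8 was called either, with log2 changes of -0.27 for Elovl1, 0.50 for Elovl2, 0.61 for Elovl5 and -1.06 for Elovl3.

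With STZ+AOS against STZ none of the 8 was called or had an unadjusted p under 0.05 (limma), and over all genes 0% were called and 657 had an unadjusted p under 0.05. The log2 changes ran from -1.22 (Elovl3, SE 0.81) to 0.07 (Elovl1, SE 0.13). Elovl3 was 0.06 to 0.15 RPKM in STZ+AOS, within the range of STZ mice 1 and 2 (0.19 and 0.06), and without STZ mouse 3 (12.03) its log2 change was -0.04 in place of -1.22.

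Around these 8 genes, 52 others of the pathway were listed in 7 groups, of which 42 were tested. With STZ against Con, 12 rose and 7 fell, and 23 were not called, where 33% of all genes were called higher and 5.52% lower. The counts of each list are to be read against these shares, which other scalings bring closer to each other. Of the other elongases and desaturases, 4 of 9 were tested, and 1 rose and 1 fell. The one that fell was Scd1, the main stearoyl-CoA desaturase of liver, with 676.24, 815.21 and 740.04 RPKM in Con and 30.90, 22.46 and 94.39 in STZ. Every STZ liver was far below Con, and the log2 change was -4.16 (SE 0.83, adjusted p = 0.00355, limma). Scd1 was called lower and Scd2 higher, and within the STZ group Scd1, like Elovl3, was highest in mouse 3, where Scd2 was lowest.

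Elovl6, which lengthens palmitate, was not called with STZ against Con (0.35, adjusted p = 0.0889). It measured 16.34, 18.86 and 22.53 RPKM in A10-FMT, above all 3 STZ livers (13.64, 9.30 and 13.29). The log2 change of 0.64 (SE 0.15) with A10-FMT against STZ was the closest to a call that any elongase or desaturase named here came in that comparison (adjusted p = 0.0761, limma).

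The steps shared with elongation and desaturation moved in both directions. Of 5 tested enzymes of the elongation cycle 1 rose and 1 fell, the latter being Hsd17b12, the keto reductase (-0.55, SE 0.12, adjusted p = 0.00599, limma). Of 4 electron donors 1 rose and 2 fell, and of 4 tested acyl-CoA synthetases none was called. Of 9 genes of peroxisomal import and chain shortening 5 rose and 1 fell, with a median log2 change of 0.47. Abcd2, a peroxisomal importer of very long acyl chains, went from 0.19, 0.30 and 0.43 RPKM in Con to 18.07, 11.44 and 3.22 in STZ (2.94, SE 0.43, adjusted p = 0.000884, limma).

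Of 5 tested enzymes that place such chains into phospholipids 2 rose and none fell. These were Agpat3 (0.99, SE 0.15, adjusted p = 0.000907) and Lclat1 (0.70, SE 0.09, adjusted p = 0.000471, limma). Of 11 regulators 2 rose and 2 fell. Ppard, a nuclear receptor for fatty acids, measured 15.97, 18.07 and 18.74 RPKM in Con and 2.93, 2.31 and 5.36 in STZ (-2.09, SE 0.20, adjusted p = 0.00019, limma). Srebf1, the gene of SREBP-1c, was not called (-0.41, SE 0.35, adjusted p = 0.366), and neither was Ppara (0.34, SE 0.24, adjusted p = 0.265, limma).

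With A10-FMT or Con-FMT against STZ none of these 42 genes was called. With STZ+AOS against AOS 9 rose and 11 fell, where 31.8% of all genes were called higher and 6.11% lower. Scd1 was lower here too, with a log2 change of -4.51 (SE 0.77, adjusted p = 0.000722, limma), from 2033.32, 895.16 and 1327.58 RPKM in AOS to 107.30, 41.87 and 42.66 in STZ+AOS.

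Across all genes, the transcripts most like each of the 8 over 18 livers were given by Pearson's r of log2(RPKM + 1), as a description. Elovl3 was followed most closely by Hsd3b5 (0.983), a steroid dehydrogenase of mouse liver, and Gna14 (0.974), and Elovl5 by Ltbp4 (0.937). Fads1 and Fads2 had each other (0.948) and Serpinf1 (0.95 and 0.932) as nearest, Elovl2 had Haus4 (0.903) and Ube2h (0.896), and Fads6 had Mrpl10 and Eif5a (0.939 both). Scd2 had Lig1 (0.91) and Pitpnm2 (0.908), and Elovl1 had Gmds (0.821) and Rgs3 (0.799), the loosest of the 8.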

How the data were processed

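Liver RNA of 18 mice had been enriched with oligo(dT) and sequenced on an Illumina HiSeq by the authors. The authors mapped the reads with SOAPaligner according to the study's methods, whereas the submitters' processing notes name Bowtie 0.12.2 and mm10. The values the authors deposited are RPKM, 1 per gene and library. According to the study's methods, read numbers were turned into RPKM and differences were then sought with DEGseq, which was not repeated here.

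Here a gene was tested if 3 or more libraries reached 1 RPKM. Linear models of log2(RPKM + 1) were fitted by limma (version 3.58.1, under R 4.3.3), with a mean-variance trend in eBayes and two-sided tests. Con, STZ, A10-FMT and Con-FMT were fitted in 1 model of 12 libraries (10602 genes), and comparisons with AOS in a model of 18 (10822 genes). Adjustment was by Benjamini-Hochberg over every gene tested in a comparison, and "called" means an adjusted p under 0.05. A fold change on the log2(RPKM + 1) scale understates the change of low genes. Where nothing says how the libraries of a group were made, p-values measure only the spread between them.

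The 8 genes, the 7 pathway lists and the 10 lists of cell type, clock and other markers were chosen with earlier results of these data known. Named pathway genes were at most 3 that rose and 3 that fell with the smallest adjusted p with STZ against Con (none qualified with A10-FMT against STZ), plus Srebf1, Ppara, Scd1 and Elovl6. For each of the 8 genes, the 2 with the highest Pearson's r were named, except 1 that is not reported here. The procedure was tested first on simulated data with independent noise and few changed genes, some up and some down. That test does not cover a shift of many genes in the same direction, as found here with STZ. Relative depth came from 83 genes at 0 in at least 6 libraries, and the number of mapped reads (quartiles 9050000 to 11900000) from transcript lengths, so reads per gene are estimates. Positions come from GENCODE (GRCm38) and figures were drawn with matplotlib 3.10.9.

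Alternatives were quantile normalization, median-ratio scaling, median centring, no trend, 1 RPKM required in all libraries, a pseudocount of 0.1, no low-value filter, other sets of groups in the model, a replicate block and leaving out each mouse. Mice share numbers 1 to 3 in the labels. Deviations of same-numbered mice correlated above 0.1 in all 3 pairs only between A10-FMT and Con-FMT (0.121, 0.291 and 0.179). The fits with mice 1 and 2 of Con and AOS only were chosen after seeing the data.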

Additional observations from a re-analysis of the deposited data

How the results depend on the processing

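With STZ against Con 5 of the 8 transcripts were called. This count was 4 without a filter. It was 3 with quantile normalization, median-ratio scaling, median centring, 1 RPKM in every library (which leaves Elovl3 and Scd2 untested) and only the groups compared. It was 2 with mice 1 and 2 of Con and AOS only, and 2 to 5 when leaving out 1 mouse. With A10-FMT against Con it was 3, and 2 with median centring, without a filter, with 1 RPKM in every library or with all 6 groups in 1 model. It was 5 for only the groups compared, 1 with Con and AOS mice 1 and 2 only, and 1 to 3 when leaving out 1 mouse. With Con-FMT against Con it was 2, and 3 with all 6 groups in 1 model. It was 1 without a filter, with 1 RPKM required in all libraries, with only the groups compared, or with Con and AOS mice 1 and 2 only. Leaving out 1 mouse gave 1 to 5, the 5 without Con-FMT mouse 2. It went from 0 to 1 with Con-FMT against STZ, without STZ mouse 3, and from 3 to 5 with STZ+AOS against AOS, without STZ+AOS mouse 2. In the latter comparison it was 4 with each of the 3 other scalings and 2 with 1 RPKM in every library. The cause was not tested, apart from the genes that a filter removes.

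Over all genes, the 3 scalings moved the median log2 change with STZ against Con from 0.21 to -0.01, -0.01 and -0.03, the number of calls from 4087 to 2873, 2893 and 2934, and the share of higher genes among the calls from 85.7% to 51.7%, 51.4% and 46.6%. Only the groups compared gave 2651 calls, and leaving out a mouse gave 2562 to 5012. Elovl3 stayed called under each alternative that tested it in the 4 comparisons of STZ-treated groups with Con or AOS.

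With the mouse number as a replicate block, 5 transcripts were called with STZ against Con, 3 with A10-FMT against Con, 1 with Con-FMT against Con (Fads6 lost its call, adjusted p = 0.0751, limma) and 3 with STZ+AOS against AOS. The labels give no pairing, and the correlation of same-numbered mice was above 0.1 in 15 of 45 pairs (-0.249 to 0.472). It was so in all 3 pairs for A10-FMT with Con-FMT alone, a comparison in which the block left 0 of the 8 and 0 of all genes called, as without it.

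Changes of sign were seen only in values that were never called. Under quantile normalization, median-ratio scaling and median centring Fads6 with Con-FMT against STZ was 0.025, 0.025 and 0.027 in place of -0.01, and under median centring Scd2 with Con-FMT against Con was -0.016 and Elovl1 with STZ+AOS against STZ -0.0025. When leaving out 1 mouse, the ranges that crossed 0 were, with A10-FMT against STZ, -0.23 to 1.61 for Elovl3, -0.42 to 0.051 for Scd2 and -0.053 to 0.17 for Elovl2. With Con-FMT against STZ they were -0.34 to 1.47 for Elovl3, -0.13 to 0.096 for Fads6, -0.10 to 0.21 for Elovl2 and -0.19 to 0.31 for Fads2. They were -0.62 to 0.39 for Fads2 with STZ+AOS against AOS, and -0.28 to 0.24 for Elovl5 and -0.022 to 0.45 for Fads2 with A10-FMT against Con-FMT.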

Other observations

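The remaining marker lists had these levels. Summed RPKM of 6 endothelial markers was 39.4 to 45.1 in Con, 42.9 to 55.9 in STZ and 32.9 to 69.1 in the other groups. That of 5 bile duct markers was 20.1 to 41.3 in all 18 libraries. For 7 lymphocyte markers it was 2.51 to 3.34 in Con, 0.83 to 2.44 in STZ and 0.83 to 3.99 over all libraries. Of these 7, 4 were under 1 RPKM throughout. The sum of 5 red cell markers was 1256 to 1972 in Con and 470 to 1874 in STZ, with a single high library in Con-FMT (9167). The pancreas list, 3 of whose 7 genes were under 1 RPKM in every library, was 31.2 to 40.6 in Con and 2.96 to 8.77 in STZ, and reached 22.8 in STZ+AOS mouse 3.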
